A study of Mus musculus with 18 samples.

Results

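The small proline-rich (Sprr) genes described are Sprr1a, Sprr1b, Sprr2d, Sprr2h, Sprr3 and Sprr4. Every probe set that the platform annotation assigns to one of these symbols alone was taken, on all 18 arrays. That gave 1 probe set for each of 5 genes, among 45037 probe sets and 18193 named genes. For Sprr4 no probe set was matched, so it is described only by the bases around its annotated start. The arrays were Affymetrix mouse expression arrays hybridised with amplified, biotin-labelled total RNA. They cover epidermis, dermis and whole skin from wild-type and from K14NICDER transgenic mice, with 3 arrays in each of the 6 groups. Wild-type and transgenic animals alike were C57Bl6xCBA F1 females given 4OHT (4-hydroxytamoxifen) for 14 days from an age of 7 weeks, so no group was left untreated. K14NICDER denotes a Notch intracellular domain joined to a 4OHT-responsive receptor domain and driven by the keratin 14 promoter, which is active in basal keratinocytes and not in fibroblasts. The labels give neither the number of animals behind a sample nor whether layers came from the same animals. The p-values therefore measure the spread between these samples, which may be technical.

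Small proline-rich proteins are precursors of the cornified envelope, the protein shell that replaces the plasma membrane of a dying keratinocyte at the skin surface. Transglutaminases cross-link them to each other and to loricrin, and they act as bridges whose amount changes the stiffness of the shell. Their genes lie side by side in the epidermal differentiation complex, between the S100 genes and involucrin, and are known to be raised by injury, ultraviolet light and inflammation. Notch signalling is known to take part in the commitment of basal keratinocytes to the differentiating layers, through the DNA-binding protein RBPJ.

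Promoter windows of the members are shown first. Whether motif matches go with the genotype differences described below was not tested. AP-1 sites, bound by Jun and Fos proteins, are a known element of Sprr promoters. The search was for TGANTCA, on both strands, in windows of 300 bases from RefSeq on GRCm38.p6, with 250 bases before and 50 after the annotated start. It was found in 7.81% of 32851 such windows over 27025 genes. Among 14 Sprr genes with a window it was found in 9, and among the 6 members in 4, namely Sprr1a, Sprr1b, Sprr2d and Sprr2h. The windows of Sprr3 and Sprr4 did not hold these letters. In Sprr4 the bases after the annotated start begin with ATG, a possible start codon, and no TATA box was found. Its window may therefore not hold its promoter. The part of each window before the start is printed with AP-1 matches in capitals for Sprr1b, the member with the largest genotype difference in whole skin, at chr3:92438780-92439029 on the minus strand, for Sprr2d at chr3:92338890-92339139 on the plus strand, for Sprr1a at chr3:92485882-92486131 on the minus strand, and for Sprr3, which has no match, at chr3:92458721-92458970 on the minus strand.
Sprr1b: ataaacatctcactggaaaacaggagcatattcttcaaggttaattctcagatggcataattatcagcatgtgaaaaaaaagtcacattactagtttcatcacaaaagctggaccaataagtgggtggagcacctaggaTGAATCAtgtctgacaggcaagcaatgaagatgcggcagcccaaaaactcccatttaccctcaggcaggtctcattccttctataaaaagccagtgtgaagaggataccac
Sprr2d: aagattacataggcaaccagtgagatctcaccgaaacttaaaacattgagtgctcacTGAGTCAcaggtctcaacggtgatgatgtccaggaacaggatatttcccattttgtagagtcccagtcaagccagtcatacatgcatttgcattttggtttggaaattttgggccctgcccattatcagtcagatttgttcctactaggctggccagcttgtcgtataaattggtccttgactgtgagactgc
Sprr1a: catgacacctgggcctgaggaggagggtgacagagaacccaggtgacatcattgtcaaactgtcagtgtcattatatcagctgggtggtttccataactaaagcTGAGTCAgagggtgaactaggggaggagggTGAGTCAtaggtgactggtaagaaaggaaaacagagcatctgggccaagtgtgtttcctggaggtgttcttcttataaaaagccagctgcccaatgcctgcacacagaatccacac
Sprr3: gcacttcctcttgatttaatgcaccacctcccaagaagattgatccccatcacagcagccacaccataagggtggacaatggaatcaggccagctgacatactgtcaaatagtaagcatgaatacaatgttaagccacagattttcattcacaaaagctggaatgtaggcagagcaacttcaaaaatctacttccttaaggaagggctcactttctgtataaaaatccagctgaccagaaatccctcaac

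The match lay 111 bases upstream of the start in Sprr1b, counted to its first base, and Sprr1a had matches 146 and 116 bases upstream. In the Sprr2 genes it lay farther out, 193 bases upstream in Sprr2d and 198 in Sprr2h. Sprr2h and the relatives Sprr2f, Sprr2i and Sprr2k, which also have probe sets, are set below one another to show the bases around the site in Sprr2 copies that have it. It was found in 7 of 10 Sprr2 windows and not in those of Sprr2a1, Sprr2a2 and Sprr2a3, which also held no TATA box. Sprr2k had a second match 182 bases upstream.
Sprr2d: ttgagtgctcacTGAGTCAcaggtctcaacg
Sprr2h: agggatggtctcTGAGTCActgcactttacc
Sprr2f: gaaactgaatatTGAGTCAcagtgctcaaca
Sprr2i: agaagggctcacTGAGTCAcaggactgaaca
Sprr2k: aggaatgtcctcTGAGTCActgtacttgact

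Of the other motifs only the octamer was limited to 1 branch of the family. This element of POU-domain factors, ATGCAAAT, was present in 1.74% of all windows. It was found in 7 of the 14 Sprr windows, all of them Sprr2 genes, and lay 108 bases upstream in Sprr2d and 109 in Sprr2h. A TATA box (TATAAA) was found in 13.6% of all windows, in 10 of 14 Sprr windows and in 5 of the 6 members. The core TGGGAA, which RBPJ can bind, was found in 25.6% of all windows, in 9 of 14 Sprr windows and in 3 of the 6 members. Sprr2d held it 149 bases upstream, and in Sprr3 and Sprr4 the match lay after the start. GAAACT, a repeat unit of interferon elements, was found in 15.8% of all windows and in 5 of 14 Sprr windows, among them Sprr1b and Sprr2d. All searches covered both strands, and no AP-1 match overlapped a match of another motif. A match is a run of letters and says nothing about binding in these tissues.

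**Figure D1:**
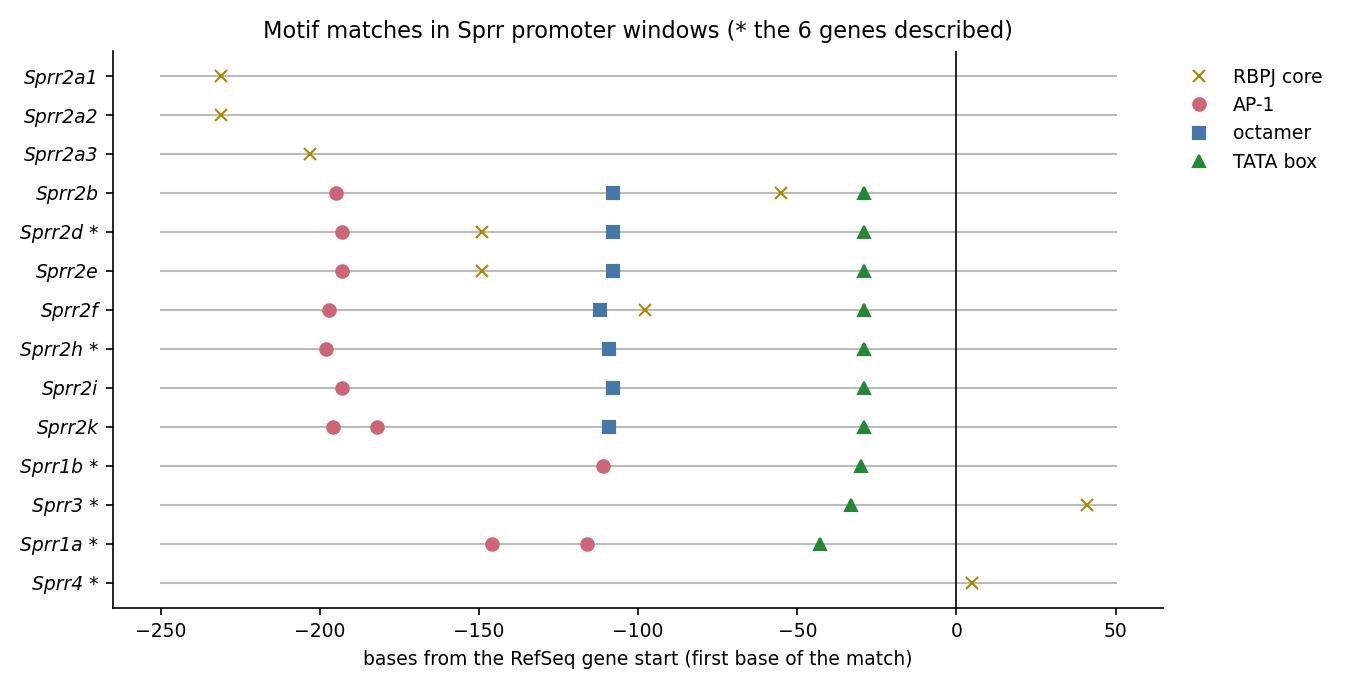
Positions of motif matches in the windows of 14 Sprr genes, in bases from the RefSeq start (horizontal axis, negative before the start), 1 line per gene in chromosomal order. AP-1 matches lie between 198 and 182 bases upstream in 7 Sprr2 genes and nearer the start in Sprr1a and Sprr1b, and the octamer is present in 7 Sprr2 genes alone.

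The values are log2 MAS5 signals, as deposited. MAS5 scatters dim probe sets, so a difference measured against a very low value is imprecise and can be large. Whole-skin arrays were tighter than the others, with a median correlation with arrays of their own group of 0.961 to 0.969, against 0.825 to 0.93 for dermis and epidermis. Each comparison was therefore fitted with limma on its own arrays alone, over 31526 probe sets with a mean above 3.15, with Benjamini-Hochberg adjustment and a threshold of 0.05. Sprr1a, Sprr1b, Sprr2d and Sprr2h passed that filter and Sprr3 did not, so its differences come from a fit without the filter. Levels are compared within a probe set and never between genes. The Sprr2h probe set is of a kind whose probes can match more than 1 transcript, and Sprr2 genes are close copies, so its signal may include relatives.

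The dermal fraction was not free of keratinocyte RNA, nor the epidermal fraction of collagen RNA. Krt14, a basal keratin, read 11.39 to 11.51 in wild-type dermis and 12.04 to 13.03 in wild-type epidermis. Krt10, a suprabasal keratin, read 11.52 to 12.47 and 12.61 to 13.42. The collagen gene Col3a1 read 12.03 to 12.54 in wild-type dermis and 10.16 to 11.54 in wild-type epidermis. In transgenic epidermis it read 11.19 to 11.93, which overlapped wild type. Another collagen gene, Col1a1, read 10.76 to 11.09 in wild-type and 11.71 to 12.08 in transgenic epidermis, without overlap. The dermal values below are therefore those of a fraction that held keratinocyte RNA, and in bulk tissue fewer cells of a type and less RNA per cell cannot be told apart.

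In wild-type skin Sprr1b and Sprr2h were higher in epidermis than in dermis. Sprr1b, whose protein is known as cornifin B, read 7.97, 7.10 and 5.06 in epidermis, 3.48, 1.79 and 2.68 in dermis, and 5.38, 3.96 and 5.01 in whole skin. All dermal arrays lay below all epidermal ones, by −4.06 ± 0.72 (limma log2 difference, dermis minus epidermis, ± SE, n = 3 per group throughout, adjusted p = 0.00389). Sprr2h, a member of the Sprr2 branch, read 5.65, 5.34 and 5.33 in epidermis against 2.74, 2.30 and 0.87 in dermis. These groups did not overlap either, and the difference was −3.47 ± 0.66 (adjusted p = 0.00542).

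Sprr2d differed by as much but with more spread. It read 6.16, 4.50 and 3.29 in wild-type epidermis and 4.32, −0.97 and −2.22 in wild-type dermis. The groups overlapped through dermal replicate 1, and the difference of −4.27 ± 1.56 was not called (adjusted p = 0.0766). Without that array it was −6.25 and was called (adjusted p = 0.0197), as it was with the replicate number as a block (0.0203) and with all 18 arrays in the fit (0.0305). Sprr1a, cornifin A, read 11.20, 11.27 and 10.21 in wild-type epidermis and 10.37, 9.75 and 10.74 in wild-type dermis, which overlapped, and its difference of −0.60 ± 0.35 was not called (adjusted p = 0.233). Sprr3, best known from the lining of the oesophagus and mouth, read 3.90, 3.85 and 2.60 in epidermis and 2.48, 1.21 and 2.68 in dermis (difference −1.33 ± 0.80, adjusted p = 0.295). So 2 of 4 tested members were lower in dermis, where 9.46% of all probe sets were, and the same 2 did not overlap, as 22.6% of probe sets did not in this direction. With 16 added on the linear scale the differences of Sprr1b, Sprr2d and Sprr2h were −2.47, −1.06 and −1.55, with the same calls. Suprabasal markers were lower too: 4 of 7 were called, with a median of −1.16 and a summed linear signal of 12400 to 20500 in dermis against 30000 to 42800 in epidermis. Over 13739 genes 6.99% were called lower in dermis. The part that carried-over epidermis plays in the dermal Sprr levels was not tested.

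In transgenic epidermis all 4 tested members rose, and their arrays did not overlap those of wild type. Higher calls made up 0.923% of all probe sets in this comparison, and 8.27% lay higher without overlap. Sprr1b read 11.53, 11.58 and 10.96 in transgenic epidermis, each well above the highest wild-type array at 7.97. The difference was 4.64 ± 0.57, a 25.0-fold higher level (95% interval 3.40 to 5.89 on the log2 scale, adjusted p = 0.0032). Sprr2d read 9.11, 10.39 and 8.15 and did not overlap its wild-type range, which ended at 6.16. Its difference was 4.57 ± 0.68, or 23.7-fold (interval 3.08 to 6.05, adjusted p = 0.0088). With 1 spread shared by all 18 arrays the same difference was not called (adjusted p = 0.0616).

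Sprr2h read 9.01, 9.73 and 8.16 in transgenic epidermis, against a wild-type mean of 5.44 ± 0.18 (SD). It rose by 3.52 ± 0.38, 11.5-fold (interval 2.70 to 4.35, adjusted p = 0.00131). Sprr1a, already bright in wild-type skin, read 12.26, 12.47 and 12.10. The 3 transgenic arrays lay above the highest wild-type array at 11.27, and the difference of 1.39 ± 0.30, 2.61-fold, passed narrowly (interval 0.72 to 2.05, adjusted p = 0.0495). That call was lost without the filter (adjusted p = 0.0548), with the replicate number as a block (0.114) and on leaving out any 1 array other than wild-type replicate 2 (0.0537 to 0.201). Sprr3 read 3.70, 3.52 and 4.32, within reach of its wild-type values, and its difference was 0.40 ± 0.68 (adjusted p = 0.796).

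Markers of several cell types were compared in the same epidermal arrays, where 1.36% of 13739 genes were called higher and 0.728% lower. The 7 suprabasal markers gave 0 calls with a median of −0.39, and their summed linear signal was 28000 to 32600 in transgenic against 30000 to 42800 in wild-type epidermis. Of 8 basal markers Krt15 (−3.66) and Col17a1 (−1.19) fell, and the sum was 12100 to 12500 against 17500 to 23100, without overlap. Of 6 inner root sheath markers Krt73 rose, by 4.39, and the sum was 164 to 429 against 68.2 to 175. Of 5 melanocyte markers 4 were tested and 0 called, with a median of 2.61 and a sum of 43.7 to 247 against 23.3 to 75.6. The 8 fibroblast markers gave 0 calls, with a sum of 8810 to 12500 against 3920 to 9040. Of the 4 neutrophil markers 2 were tested and 0 called, with sums of 63.7 to 101 and 28.7 to 136 that overlapped. The 6 macrophage markers gave 0 calls, but their sum was higher without overlap, at 1660 to 2270 against 970 to 1490. Of 3 T cell markers 0 were called, and their sum was lower without overlap, at 282 to 415 against 521 to 671. The part of these shifts in the Sprr differences was not tested.

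Whole skin, in which the layers were not separated, gave the same calls. All 4 tested members rose, where 0.91% of all probe sets were called higher and 9.66% lay higher without overlap. Sprr1b read 10.53, 10.20 and 9.0 in transgenic skin, above wild-type values that ended at 5.38. The difference of 5.13 ± 0.42, 35.0-fold, had an interval of 4.18 to 6.08 (adjusted p = 0.000883). Sprr2h read 7.61, 7.65 and 5.79 against 3.87, 2.70 and 2.92 (3.85 ± 0.49, 14.5-fold, adjusted p = 0.00724), or 2.55 with 16 added on the linear scale.

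Sprr2d read 7.95, 8.77 and 6.01 against 3.82, 4.10 and 3.56 in whole skin, again without overlap. It rose by 3.75 ± 0.56, 13.5-fold (interval 2.49 to 5.01, adjusted p = 0.0148). The difference was 2.81 with 16 added on the linear scale and 3.15 to 4.53 on leaving out 1 array. The call was lost without wild-type replicate 1 (0.0776), without transgenic replicate 1 (0.0692) and with 1 spread over all 18 arrays (1.0). Transgenic replicate 3 gave the lowest value of its group for all 5 measured members in whole skin. Sprr1a read 11.57, 11.45 and 11.21 against 10.89, 10.80 and 10.99, a small and regular difference of 0.51 ± 0.10 (1.43-fold, adjusted p = 0.0385). This call was lost with all 18 arrays (1.0), without the filter (0.0621), after quantile normalization (0.0632), with the replicate block (0.066) and on leaving out any 1 array except transgenic replicate 3 (0.0638 to 0.147). Sprr3 spread from 3.20 to −1.23 in transgenic and from 3.02 to −0.63 in wild-type skin, and its difference was 0.03 ± 1.24 (adjusted p = 0.996).

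**Figure D2:**
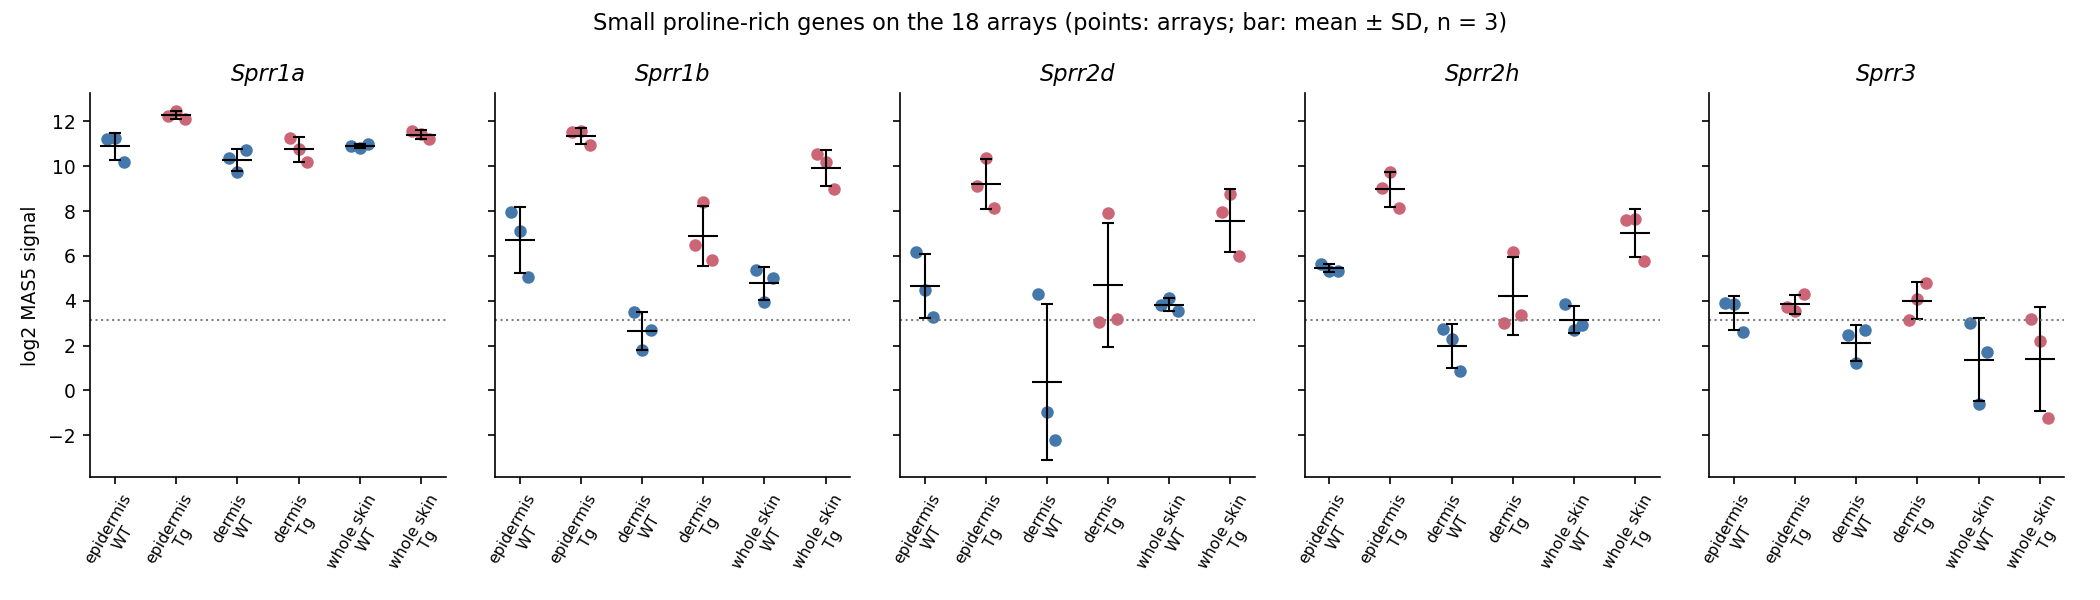
Log2 MAS5 signal (vertical axis) of Sprr1a, Sprr1b, Sprr2d, Sprr2h and Sprr3 in epidermis, dermis and whole skin of wild-type (WT, blue) and transgenic (Tg, red) mice. Points are single arrays, bars the mean ± SD of 3, and the dotted line is the filter at 3.15. In epidermis and whole skin the 3 transgenic points lie above the 3 wild-type points for every gene but Sprr3.

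In dermis 0 of 4 tested members were called, in a comparison that called only 0.0222% of probe sets (7 in all, and 1234, or 3.91%, at an unadjusted p under 0.05). Sprr1b read 6.47, 8.39 and 5.82 in transgenic dermis, above all 3 wild-type values. Its difference of 4.24 ± 0.71 had an interval of 2.66 to 5.82, with an unadjusted p of 0.000147 and an adjusted p of 0.28. With all 18 arrays in the fit it was called (adjusted p = 0.0188). With 16 added on the linear scale, which damps dim values, the difference shrank to 2.60.

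The Sprr2 members read highest on 1 transgenic dermal array. Sprr2d read 7.92 in transgenic replicate 2, against 3.07 and 3.17 in the other two and 4.32 at most in wild type, so the groups overlapped (4.34 ± 1.82, interval 0.27 to 8.41, adjusted p = 0.99). Sprr2h read 3.02, 6.19 and 3.38, each above the wild-type maximum of 2.74 (2.23 ± 0.98, adjusted p = 0.99). Sprr3 read 3.14, 4.09 and 4.78 against 2.48, 1.21 and 2.68, also without overlap (1.88 ± 0.78, unadjusted p = 0.0354, adjusted p = 1.0). Sprr1a overlapped at 11.28, 10.79 and 10.17 (0.46 ± 0.37, adjusted p = 0.99). With 16 added on the linear scale the dermal differences of Sprr2d, Sprr2h and Sprr3 were 1.34, 0.91 and 0.67. Among the tested members, transgenic arrays lay above wild-type arrays for Sprr1b and Sprr2h, where 3.09% of tested probe sets did so. Sprr3, which was below the filter, lies outside that share.

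Keratinocyte markers were not called higher in the dermal fraction. The summed signal of the 7 suprabasal markers was 10200, 10300 and 4290 in transgenic dermis against 20500, 12400 and 14300 in wild type, with differences of −2.08 to −0.68 and 0 calls. The basal sum was 10700 to 12400 against 13800 to 16300. Inner root sheath markers, genes of the growing hair follicle, rose instead: 4 of 6 were called, among them Krt25 by 8.45, and the sum was 2040 to 3730 against 59.9 to 95.9. Over 13739 genes 0.0509% were called higher in dermis. Transgenic dermal replicate 2 had the highest Sprr1b, Sprr2d and Sprr2h of its group. It also had the highest Krt1 (10.55 against 10.07 and 6.34) and Krt10 (11.86 against 10.9 and 10.3). Its Krt5 (10.35 against 10.67 and 10.54) and Krt14 (11.03 against 11.25 and 11.10) were the lowest. Its basal sum, however, was 11500 and lay between those of the other arrays, 10700 and 12400. The part of either marker shift in the dermal Sprr values was not tested.

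The genotype difference was not shown to differ between the layers. The interaction (dermis minus epidermis, 12 arrays) gave 0 calls among members, as over all probe sets (0.0%, with 2333, or 7.4%, at an unadjusted p under 0.05). It was −0.40 ± 1.0 for Sprr1b, with an interval of −2.54 to 1.74, so a difference of several-fold either way remains within the error. The interval for Sprr2d, −4.76 to 4.31, was wider still. The estimates were −1.30 ± 1.03 for Sprr2h (interval −3.50 to 0.90) and −0.93 ± 0.51 for Sprr1a (−2.01 to 0.16). Sprr3 had 1.48 ± 1.0 (adjusted p = 0.732). With 16 added on the linear scale the estimates for Sprr1b, Sprr2d and Sprr2h were −1.78, −2.45 and −2.21, and none was called (adjusted p = 0.606, 0.606 and 0.442).

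Within transgenic skin the 4 tested members were all lower in dermis than in epidermis, where 6.1% of probe sets were called lower. Sprr1b differed by −4.46 ± 0.56 (adjusted p = 0.0016), Sprr2h by −4.77 ± 0.76 (0.00412), Sprr2d by −4.50 ± 1.13 (0.0292) and Sprr1a by −1.53 ± 0.34 (0.0174). None of these 4 overlapped between the layers, as 17.5% of probe sets did not in this direction. The Sprr2d call was lost without dermal replicate 3 (0.0618) or any 1 epidermal array (0.0561 to 0.118). That of Sprr1a was lost without dermal replicate 2 (0.068), without any 1 epidermal array (0.0625 to 0.0816) and after quantile normalization (0.0516). Sprr3 did not follow, at 0.15 ± 0.66 (adjusted p = 0.934). In both genotypes, then, Sprr1b and Sprr2h were lower in dermis, and those calls held on leaving out each array in turn.

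**Figure D3:**
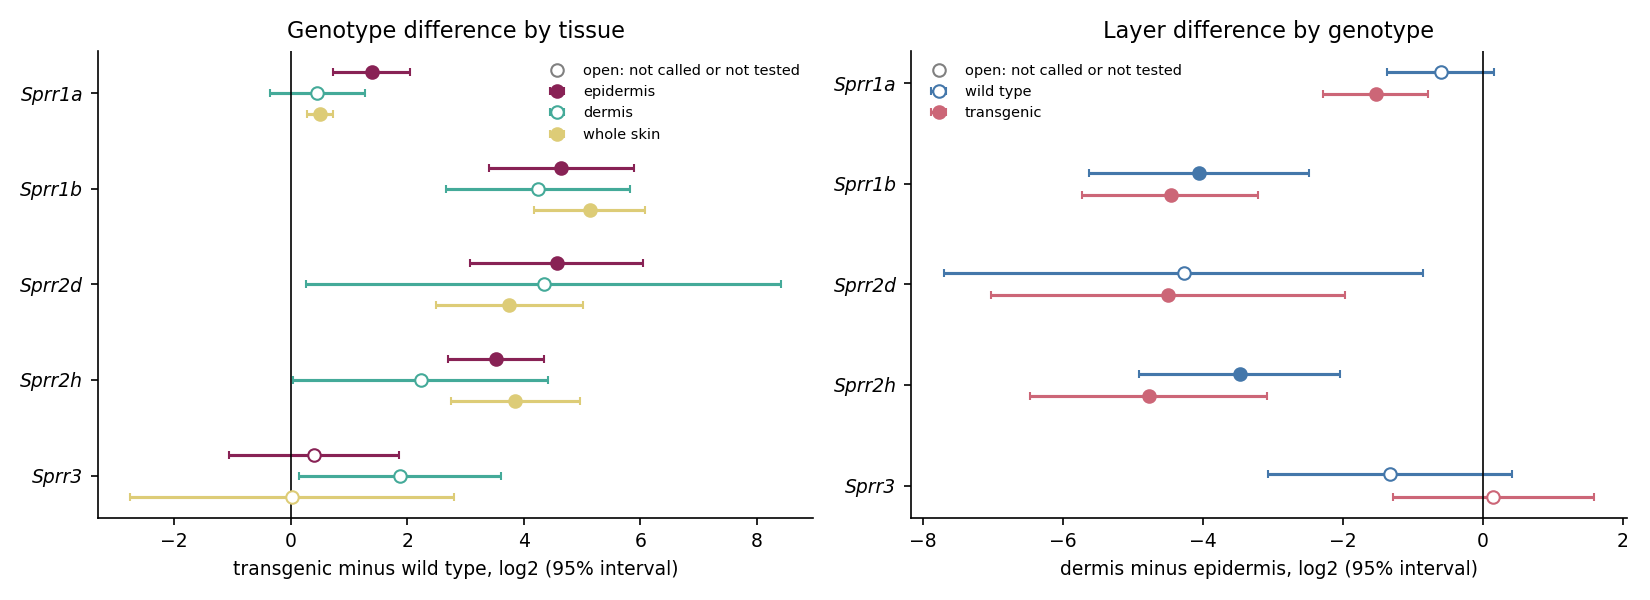
Differences of mean log2 signal with 95% intervals from limma: transgenic minus wild type in 3 tissues (left) and dermis minus epidermis in each genotype (right). Filled points passed an adjusted p of 0.05 and open points did not or were below the filter. For Sprr1b the intervals of the 3 tissues overlap, from 2.66 to 6.08 in all, while those of Sprr2d in dermis span 0.27 to 8.41.

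Over the 6 groups Sprr1b had the order transgenic epidermis (mean 11.35 ± 0.34 SD), transgenic whole skin (9.91 ± 0.80), transgenic dermis (6.89 ± 1.33), wild-type epidermis (6.71 ± 1.49), wild-type whole skin (4.78 ± 0.74) and wild-type dermis (2.65 ± 0.85). The arrays of transgenic dermis and wild-type epidermis overlapped, as did those of wild-type epidermis and whole skin. Sprr2d and Sprr2h shared the top of that order, but each pair of neighbours overlapped for Sprr2d. For Sprr2h wild-type epidermis (5.44 ± 0.18) stood above transgenic dermis (4.20 ± 1.73), with overlap. Sprr1a covered a narrow range, from 12.28 ± 0.19 in transgenic epidermis to 10.29 ± 0.50 in wild-type dermis, and its 4 lower groups ran into each other. Sprr3 had its highest mean in transgenic dermis (4.00 ± 0.83), and all neighbouring groups overlapped.

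The members tracked one another over the 18 arrays, as a description of points that share tissue and genotype. Pearson's r was 0.95 between Sprr1b and Sprr2h, 0.92 between Sprr2d and each of these, and 0.77 to 0.87 between Sprr1a and the other three. With Sprr3 it was 0.24 to 0.33. Among 13735 other genes the pattern of Sprr1b was most like those of S100a9 (0.96), Krt16 (0.96) and Stfa2l1 (0.94). Stfa2l1 (0.94), Krt6b (0.94) and S100a9 (0.92) came first for Sprr2d, and Stfa2l1 (0.96), Fxyd4 (0.96) and S100a9 (0.94) for Sprr2h. Sprr1a had other nearest genes, Klk6, Mrpl18 and Glrx, each at 0.93. For Sprr3 the highest values, 0.81 for Myo15b and 0.77 for Nek2 and Cby2, were lower.

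The other Sprr2 genes gave 7 probe sets, of which 6 were tested. In epidermis, where 0.923% of all probe sets were called higher, 2 rose. Both were shared by the near-identical copies Sprr2a1 and Sprr2a2, and rose by 3.03 ± 0.38 (adjusted p = 0.00388) and 2.60 ± 0.54 (0.0383). The third probe set of these copies, which also matches Sprr2a3, differed by 2.20 ± 0.57 without a call (0.0923). The windows of Sprr2a1, Sprr2a2 and Sprr2a3 had no TGANTCA match, and no octamer or TATA box either. Whether they cover the same stretch as the other Sprr2 windows was not tested. The windows of Sprr2f, Sprr2i and Sprr2k had matches of each of these motifs, and these genes were not called in epidermis. Whether matches go with the differences was not tested. Sprr2f differed by 2.71 ± 0.71 (0.0947), Sprr2i by 2.83 ± 0.96 (0.174) and Sprr2k by 0.56 ± 0.42 (0.489) in epidermis.

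In whole skin, where 0.91% of all probe sets were called higher, 4 of the 6 rose: Sprr2f by 3.39 ± 0.56 (adjusted p = 0.0219) and the 3 Sprr2a probe sets by 3.46 to 3.82. In dermis none was called. The 3 Sprr2a probe sets, which match near-identical copies, lay above wild type on all arrays, where 3.09% of tested probe sets did so. Their differences were 2.50 to 2.74 (adjusted p = 0.511 to 0.641). Sprr2i and Sprr2k had dermal differences of −0.37 ± 1.22 and −0.62 ± 0.52. Dermis was called below epidermis for 5 of the 6 in wild-type skin, where 9.46% of all probe sets were called lower. In transgenic skin 6 of 6 were called lower, where 6.1% of probe sets were. Sprr2i passed the filter narrowly, with a mean of 3.21 over the 18 arrays, and read highest in transgenic epidermis (mean 5.75). Sprr2f, with wild-type means of 2.09 in dermis, 4.76 in epidermis and 2.44 in whole skin, passed only through its transgenic arrays.

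Genes on either side of the Sprr cluster were taken from their order in RefSeq, a list chosen after the members' values had been seen. Of 16 tested flanking genes, 8 on each side, 2 rose in epidermis, where 1.36% of 13739 genes were called higher. These were S100a8, by 5.51, and S100a9, by 3.97, the subunits of calprotectin. The nearest tested neighbours did not. Loricrin (Lor), the main envelope protein that Sprr proteins bridge, differed by −0.72, Prr9 by −0.10 and involucrin (Ivl), an early envelope scaffold, by 0.94 (adjusted p = 0.272 for Lor and 0.1 for Ivl). In whole skin, where 1.43% of genes were called higher, S100a16, S100a8, S100a9 and Ivl rose, the last by 0.91 ± 0.14 (adjusted p = 0.0157). In dermis Prr9 alone was called, by 4.16, where 0.0509% of genes were called higher. In epidermis the 8 genes on the involucrin side gave no call. Sprr1a beside them was called narrowly, at 1.39 ± 0.30 (adjusted p = 0.0495), against 0.94 ± 0.25 for Ivl. That Sprr1a call held in 1 of 6 fits that left out 1 array.

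**Figure D4:**
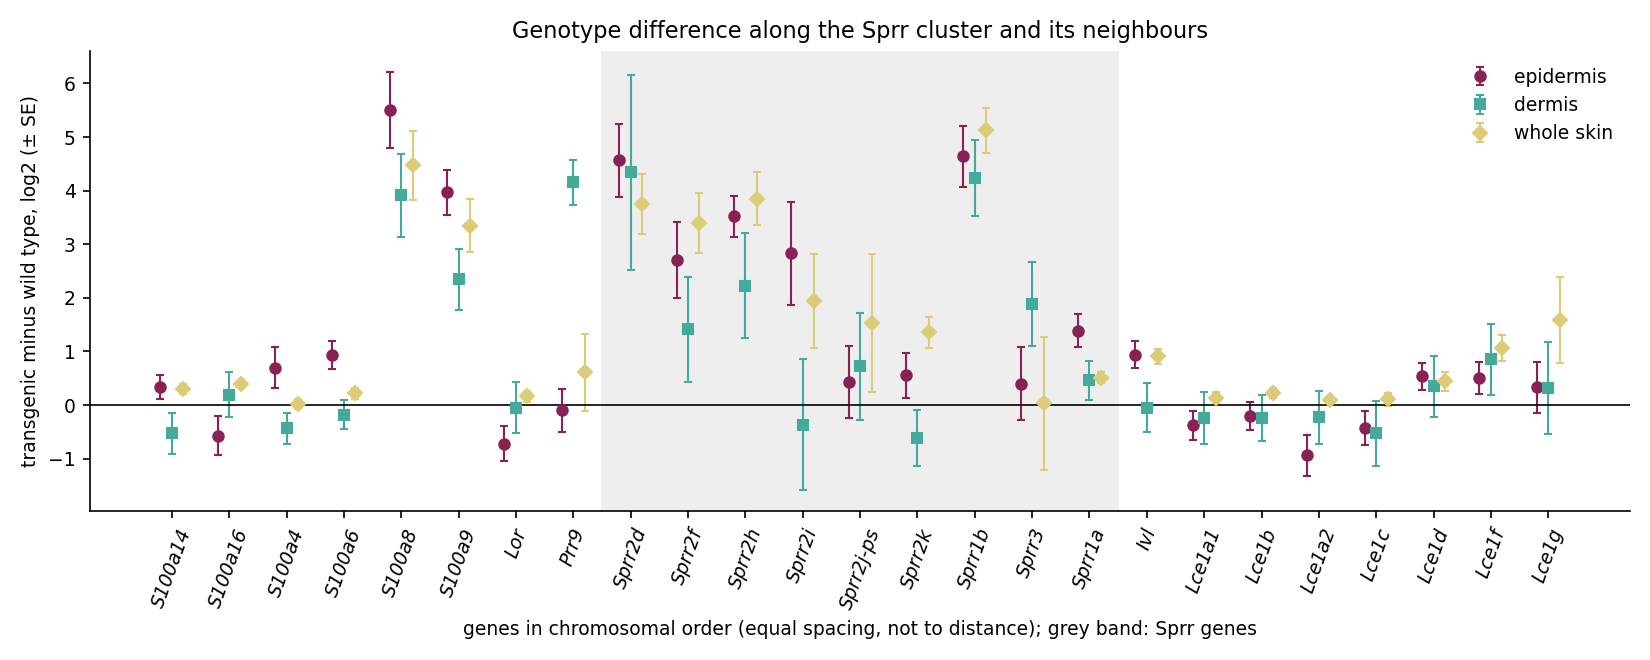
Genotype difference in log2 signal ± SE (vertical axis) for Sprr genes (grey band) and 8 tested genes on each side, in chromosomal order at equal spacing, in epidermis, dermis and whole skin. Sprr2d and Sprr1b reach 4.57 and 4.64 in epidermis, S100a8 reaches 5.51, and the involucrin and Lce1 side lies between −0.94 and 0.94 in epidermis.

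Other cornified envelope genes were mostly not called with the Sprr genes. Of 18 envelope precursors and scaffold genes, 2 rose in epidermis, filaggrin (Flg) by 2.90 ± 0.22 and repetin (Rptn) by 3.33 ± 0.44, and the median was 0.24, beside −0.10 and 1.36% higher calls over 13739 genes. The median of the 5 measured members was 3.52. In whole skin, where 1.43% of genes were called higher, 3 rose, Flg by 2.48, Ivl by 0.91 and cystatin A (Csta1) by 0.58. In dermis trichohyalin (Tchh), a protein of the inner root sheath, rose by 4.51 ± 0.36 (adjusted p = 0.00458). Of 15 late cornified envelope genes, 3 rose in epidermis: Lce3f by 4.74 ± 1.01 (adjusted p = 0.0429), Lce3a by 2.91 ± 0.59 (0.0369) and Lce1h by 1.31 ± 0.29. The Lce1h call was at the threshold, with an adjusted p of 0.05 after rounding. Lce3f and Lce3a rose in whole skin too, by 5.12 and 3.09, and Lce1m fell by 0.69. Of the enzymes that cross-link Sprr proteins, Tgm1, Tgm2, Tgm3 and Tgm5, 0 of 4 were called in any of the 3 tissues, and Tgm1, the membrane-bound transglutaminase of keratinocytes, differed by 0.94 in epidermis (adjusted p = 0.122).

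Among 21 tested factors known to act on Sprr or envelope genes, 2 rose in epidermis: Ehf, an Ets factor of epithelia, by 1.79 ± 0.26 (adjusted p = 0.0084), and Fos, an AP-1 subunit, by 1.49 ± 0.30 (0.0334). In whole skin Ehf (0.83), Fos (1.41), Jun (0.76) and Cebpb (0.67) rose, and in dermis 0 of 21 were called. Klf4, a factor of barrier formation, differed by 0.31 in epidermis and 0.07 in whole skin (adjusted p = 0.466 and 0.676), and Pou2f3, a POU-domain factor of keratinocytes, by 0.10 and −0.16. By genotype difference in epidermis and whole skin, the list nearest to the Sprr genes was that of stress keratins and alarm genes. Of these, 7 of 8 rose in epidermis, with a median of 3.88, and 7 of 8 in whole skin, with 3.34. Over all 13739 genes 1.36% were called higher in epidermis and 1.43% in whole skin. Krt6b rose by 5.88 ± 0.74 and Krt6a by 4.89 ± 0.45 in epidermis. In dermis 0 of 8 were called, with a median of 1.77. Between wild-type layers 3 of 8 were called lower in dermis, and Krt6a was higher there by 2.17 ± 0.44 (adjusted p = 0.00761).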

How the data were processed

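RNA from epidermis, dermis and whole skin of wild-type and transgenic mice was measured on 18 arrays, 3 per group. The authors deposited 1 table of log2 signal values for 45037 probe sets, made with MAS5 per the submitters' processing notes, with version, settings and scaling not given in the sources used here. That they are log2 was read from the values: taken back to linear, the mean of an array without its extreme 2% lay between 98.92 and 99.52. The authors' log2 values entered the tests unchanged.

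Symbols came from the platform annotation: 34945 had 1 symbol, 932 several and 9160 none here. Probe sets with a mean above the 30th percentile (3.15) were tested, 31526 in all. Tests used limma 3.58.1 in R 4.3.3, with a trend on mean level, only the arrays compared, and Benjamini-Hochberg adjustment over all probe sets tested. The fit was run on simulated data with 1 spread per probe set and tissue, shared by both genotypes. In dermis the median SD was 0.357 in wild-type and 0.593 in transgenic arrays, and such unequal spreads were not simulated. Lists had 1 probe set per gene, the brightest. All member probe sets were named, with up to 4 called genes of smallest adjusted p per list, 8 marker genes and the 3 most similar genes per member. Any other gene was chosen after its values were seen. Members and lists were chosen with earlier results of these data known. Epidermal differences have a median of −0.198 over all tested probe sets as deposited and 0.00057 after quantile normalization. Promoter windows came from RefSeq, GRCm38.p6. Precision is limited by the number of arrays. Alternatives were all 18 arrays, 16 added, no filter, quantile or 75th-percentile scaling, 1 probe set per gene, a replicate block and leaving out each array.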

Additional observations from a re-analysis of the deposited data

How the results depend on the processing

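Of 414 differences of single members under other settings, 366 kept direction and side of the threshold, 29 lost a call, 4 gained one and 15 changed sign. Those 15 were all of values that had not been called. For Sprr3, leaving out 1 array gave −0.03 to 0.63 in epidermis (lowest without wild-type replicate 3), −0.97 to 1.34 in whole skin (−0.97, −0.88 and −0.38 without wild-type replicate 2, transgenic replicate 1 and transgenic replicate 2) and −0.24 to 0.58 between transgenic layers (−0.24 and −0.01 without dermal replicate 3 and epidermal replicate 2), and quantile normalization gave −0.02 in whole skin. For the interaction, leaving out 1 array moved Sprr1b between −1.15 and 0.42, with 0.02 without wild-type dermal replicate 1, 0.14 without transgenic dermal replicate 3 and 0.42 without wild-type epidermal replicate 3. Sprr2d moved between −1.82 and 1.75, with 1.75 and 0.6 without dermal wild-type and transgenic replicate 1, 0.55 without transgenic dermal replicate 3, 0.45 without wild-type epidermal replicate 3 and 0.36 without transgenic epidermal replicate 2. With all 18 arrays in the fit 1 member was called in dermis and 2 in whole skin. Leaving out each array in turn gave 0 members called in dermis, 3 to 4 in epidermis, 2 to 4 in whole skin, 2 to 3 between wild-type layers, 2 to 4 between transgenic layers and 0 for the interaction.

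The numbers called over all probe sets moved more. All 18 arrays in the fit gave 1811 in place of 470 in epidermis, 56 in place of 7 in dermis, 34 in place of 493 in whole skin, 8979 in place of 4083 between transgenic layers and 45 in place of 0 for the interaction. Leaving out any 1 of the 6 epidermal arrays gave 88 to 2396 in epidermis, and leaving out 1 array gave 1 to 36 in dermis and 138 to 509 in whole skin. The causes were not tested.

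Replicate numbers are shared between groups, and correlations of same-numbered arrays, as deviations from group means, ran from −0.329 to 0.4. No 2 groups compared here had all 3 correlations over 0.1, so the numbers were not taken as pairs. Transgenic epidermis and transgenic whole skin, which were not compared, did (0.216, 0.171 and 0.166), and transgenic dermis and epidermis had 0.4, 0.161 and 0.00267. With the replicate block 0 members were called in dermis, 3 each in epidermis and whole skin, 3 between wild-type layers (with Sprr2d added), 4 between transgenic layers and 0 for the interaction, and 192 probe sets in all in epidermis. Low signals limit Sprr2d, Sprr2h and Sprr3 in dermis, and Sprr1b in wild-type dermis (3.48, 1.79 and 2.68).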
